A study of Equus caballus with 8 samples.

Results

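Complement is a cascade of plasma and tissue proteins that marks targets for clearance and can punch pores into membranes. In the classical pathway the protease C1r activates C1s inside the C1 complex, and C1s then cleaves later components. The pathways meet at the cleavage of C3, for which the alternative pathway uses factor B, and they end in a membrane pore of which C7 is a part. C1 inhibitor blocks C1r and C1s, factor I cuts the activated fragments of C3, and the surface proteins CD46 and CD55 shield a cell from its own complement. Although most circulating complement is made in the liver, stromal cells also transcribe several of its genes, and interferon and interleukin-6 type signals are known to raise them.

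The complement components and regulators described here were chosen by gene symbol from a list of 9, and 7 of them were matched among the 15266 named genes of the deposited table: C1R, C1S, SERPING1 (C1 inhibitor), CFB (factor B), CFI (factor I), C7 and CD55. C3 and CD46 were not analysed here. RNA-sequencing was performed on equine BM-MSCs, mesenchymal stem cells grown as adherent cells from sternal bone marrow, of 4 horses with the letters D, J, L and W. Every animal provided 1 untreated culture and 1 culture that received 1 ng/ml recombinant human TGF-β2, and both arms grew in serum-containing medium with basic fibroblast growth factor. The labels place the exposure from isolation to passage 3 or 4, while the study's methods give a single number of passages. Each culture is a primary population from 1 donor, and no time course was sampled.

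Values are normalized counts, that is, reads scaled by 1 factor per library, and are not corrected for transcript length, so levels are compared between libraries and not between genes. Between 39184554 and 57228675 reads were assigned to named genes per library. Limits derived from reads cover counting error only, since PCR copies are not separate molecules. The 5 mesenchymal markers ITGB1 (CD29), CD44, THY1 (CD90), ENG (CD105) and NT5E (CD73) each had at least 1609 normalized counts in every library, although THY1 was itself called lower after treatment (log2 fold change -2.21, limma adjusted p = 0.0494). A gene was called when the Benjamini-Hochberg adjusted p from limma, fitted over 14907 genes, was under 0.05 and the absolute log2 fold change on normalized count + 1 exceeded 1, and SE denotes the standard error of that log2 fold change. This scale understates the change of genes with few reads.

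TGF-β2-treated BM-MSCs held far fewer transcripts of the classical pathway proteases and of their inhibitor. C1R was 116-fold, C1S 50.7-fold and SERPING1 12.6-fold lower by the ratio of group means, and CFI and C7 were 5.64-fold and 3.29-fold lower. Of the 7 genes, 5 were called lower, whereas 5.87% of all genes tested were called lower. Limma called 0 of the 7 higher (5.59% of all genes were), and 0 had an unadjusted p under 0.05 in that direction (2742 of the 14907 genes did). In the same 5 genes all treated libraries lay below all untreated libraries, which held for 13.9% of the genes tested, and the same 5 were lower in all 4 horses, against 25.6%. The median log2 fold change of the 7 genes was -2.20 against 0.01 over all genes tested. With a blocking term for the horse, limma again called 5 lower and 0 higher, against 7.31% and 6.83% of all genes. On the recovered reads, DESeq2 called 6 lower and 0 higher (7.49% and 6.27% of all genes), and also 6 and 0 with the horse in the model (8.26% and 7.46%). edgeR called 5 and 0 (6.06% and 5.21%), and with the horse in the model also 5 and 0 (7.17% and 6.64%). Limma on libraries scaled to the same total called 6 and 0 (10.3% and 3.94%).

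**Figure D1:**
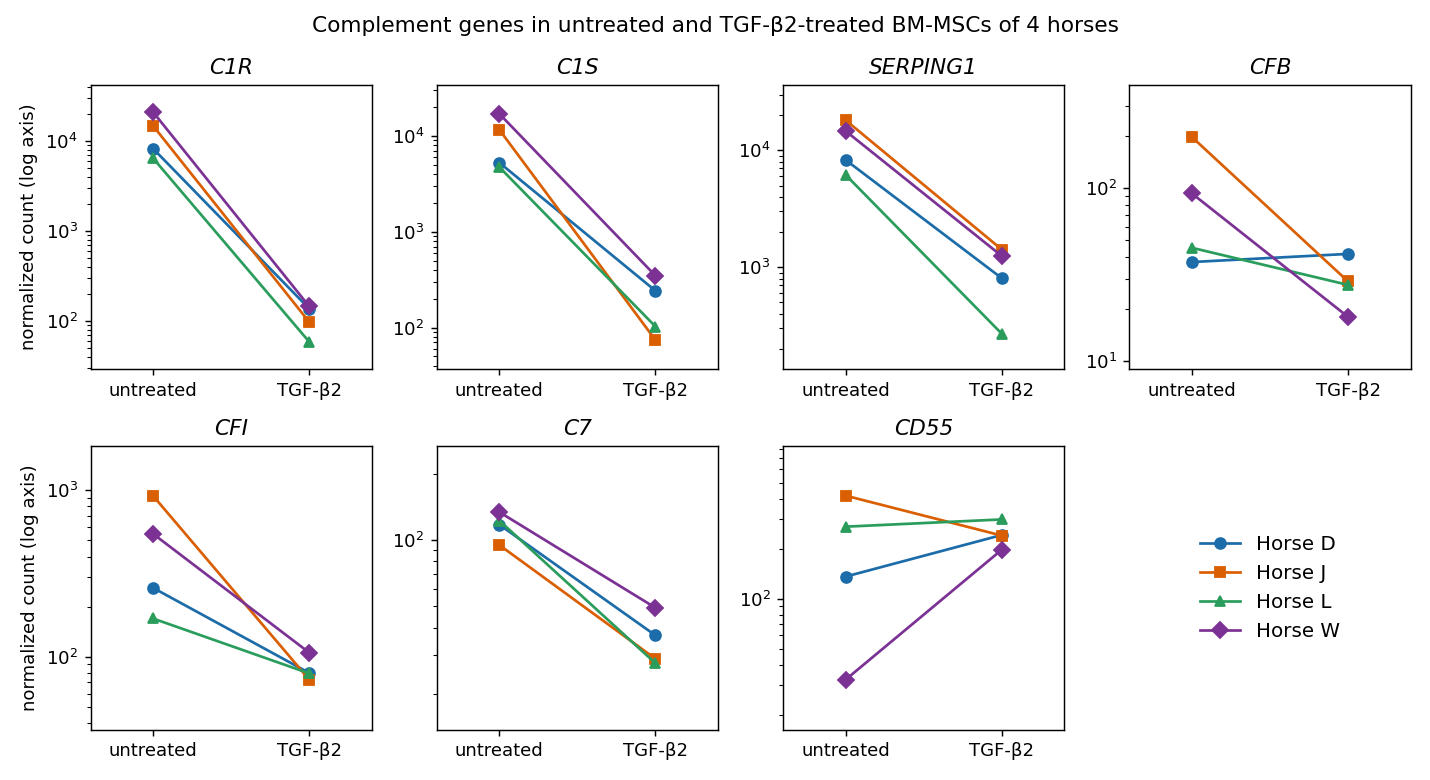
Normalized count (log axis, scaled separately in each panel) of the 7 complement genes in the untreated and the TGF-β2-treated library of each horse, joined by a line per horse. C1R, C1S, SERPING1, CFI and C7 fell in all 4 horses with no overlap between the groups, while the lines of CFB and CD55 run in both directions.

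C1R encodes the protease that starts the classical cascade. In untreated cells its normalized count was 8281 in horse D, 14854 in J, 6474 in L and 21111 in W. After treatment it was 137 in D, 97.4 in J, 58.6 in L and 145 in W. All treated libraries lay far below all untreated ones, and the treated values still rested on 51 to 121 reads per library. C1R changed by -6.77 on the log2 scale (SE 0.42), at limma adjusted p = 1.79e-04 (blocked fit, 6.51e-04). C1R had the 7th lowest log2 fold change of the 14907 genes, among only 0.637% of genes with a value under -4. Within single horses it was 60.5-fold lower in D, 110.4-fold in L, 145-fold in W and 152-fold in J.

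C1S encodes the partner protease that C1r activates. The untreated libraries held 5278 normalized counts in D, 11677 in J, 4746 in L and 17117 in W. The treated libraries held 242, 73.9, 102 and 347 in the same order. The groups were again widely separated, with a log2 fold change of -5.72 (SE 0.58) and limma adjusted p = 9.75e-04 (blocked fit, 0.00174). Horse J showed the largest change, 158-fold, and horse D the smallest, 21.8-fold. Among untreated libraries the order of the horses was the same for C1R and C1S, W above J above D above L. Among treated libraries it differed below W, since J ranked last for C1S and L for C1R.

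SERPING1 encodes C1 inhibitor, the serpin that inactivates C1r and C1s. Its normalized count without treatment was 8283 in D, 18128 in J, 6177 in L and 14653 in W. With TGF-β2 it was 806 in D, 1419 in J, 270.2 in L and 1248 in W. The transcript stayed readily detectable in treated cells, with 235 to 1325 reads per library, although each horse had lost at least 10.3-fold. The log2 fold change was -3.77 (SE 0.55), at limma adjusted p = 0.00323 (blocked fit, 0.00101). The log2 change was -4.51 in horse L and between -3.67 and -3.36 in the others. The order of the horses, J above W above D above L, was the same in both arms.

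**Figure D2:**
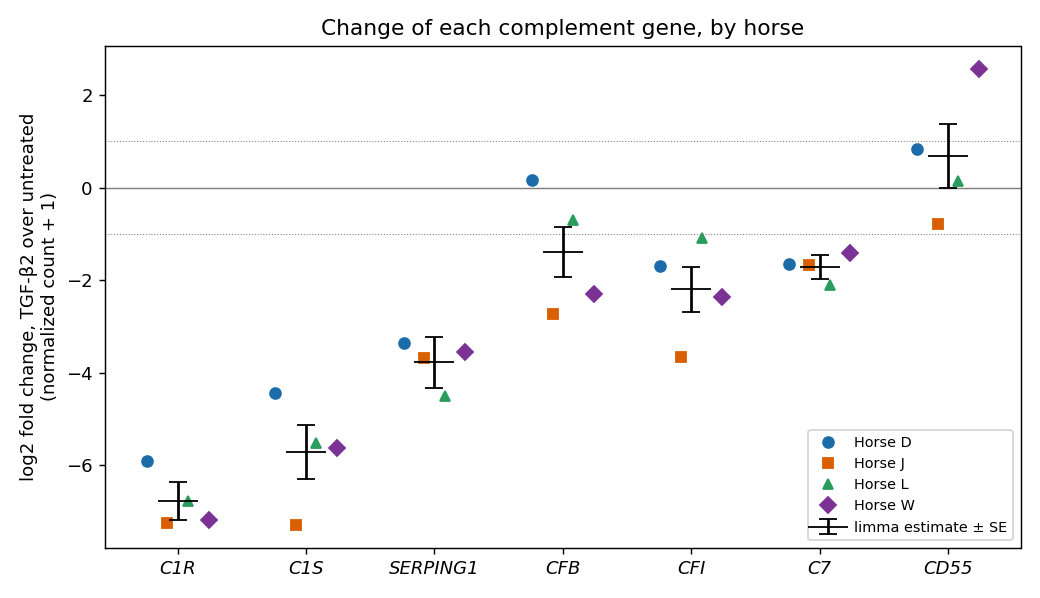
Log2 fold change (TGF-β2-treated over untreated, normalized count + 1) of the 7 complement genes in each horse, with the limma estimate and its standard error as a bar and the threshold of 1 as dotted lines. C1R, C1S and SERPING1 have estimates of -6.77, -5.72 and -3.77, with every horse at -3.36 or lower, while the horses of CD55 run from -0.80 to 2.56.

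To see whether proteases and inhibitor fell by the same amount, their ratios were taken within each library. These 3 comparisons were chosen after the values were seen, and a ratio of the same gene pair is not affected by library scaling or gene length. The ratio of C1R to SERPING1 was 1.00 in D, 0.819 in J, 1.05 in L and 1.44 in W without treatment. After treatment it was 0.170, 0.0687, 0.217 and 0.116, lower in 4 of 4 horses. The mean difference was -3.00 on the log2 scale, and an exact permutation test over the 8 libraries gave a two-sided p of 0.0286, the smallest it can give, or 0.0429 after adjustment over the 3 ratios. For C1S to SERPING1 the mean difference was -1.94, again lower in 4 of 4 horses, with the same exact p of 0.0286 and adjusted value of 0.0429. The ratio of C1R to C1S fell in 3 of 4 horses, from between 1.23 and 1.57 to between 0.419 and 0.573, whereas horse J stood at 1.27 before and 1.32 after. That difference, -1.05 on the log2 scale against SDs of 0.154 (untreated) and 0.706 (treated), had an exact permutation p of 0.0857 and did not pass the test. An exact sign-flip test over 4 paired horses cannot go below 0.125 and gave 0.125 for both ratios to SERPING1 and 0.25 for C1R to C1S.

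**Figure D3:**
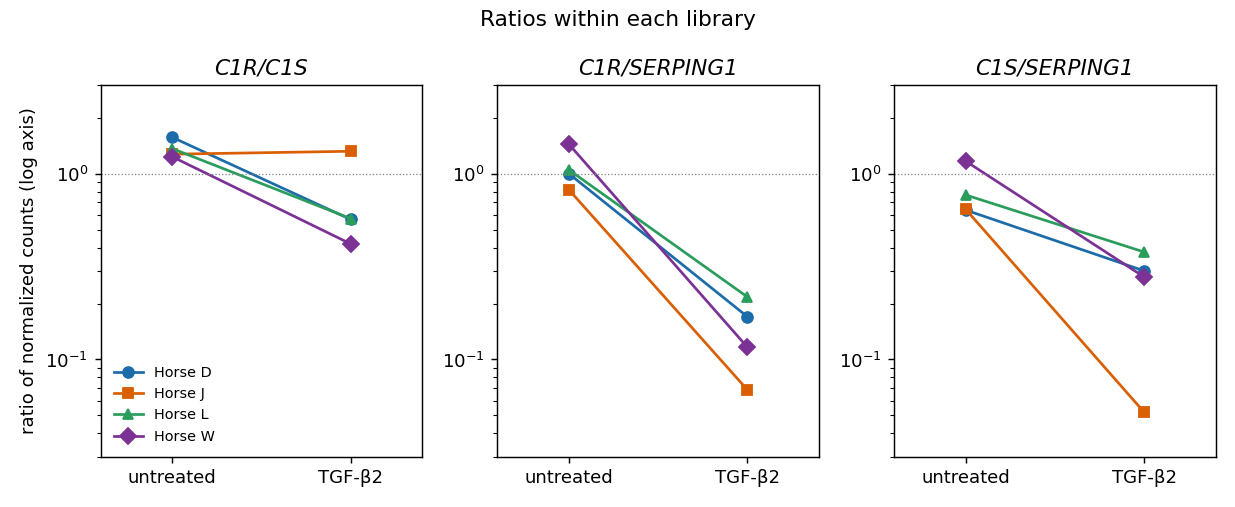
Ratios of normalized counts within each library (log axis), untreated and TGF-β2-treated, joined by horse. C1R/SERPING1 and C1S/SERPING1 fell in every horse, with no treated library above 0.379, and C1R/C1S fell in D, L and W but not in J.

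CFI encodes factor I, the fluid-phase protease that, with cofactors, degrades activated C3 and C4 fragments. Untreated cells held 259 normalized counts in D, 928 in J, 169.6 in L and 548 in W, and treated cells 79.8, 72.8, 79.3 and 105.7. The untreated horses thus differed up to 5.47-fold, and the treated ones only 1.45-fold. The log2 fold change was -2.20 (SE 0.49), at limma adjusted p = 0.0157 (blocked fit, 0.0164). The change was largest in J, -3.65, and smallest in L, -1.09. With horse D or horse W left out the adjusted p from limma was 0.0747 and 0.0900, so CFI was no longer called.

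C7 encodes a subunit of the terminal pore. It was the steadiest of these genes, with 117 normalized counts in D, 94.9 in J, 122 in L and 134 in W without treatment. Treated libraries held 36.9, 28.9, 27.6 and 49.3, from 24 to 41 reads each. Every horse fell by a similar amount, from -2.11 to -1.42 on the log2 scale. The log2 fold change was -1.72 (SE 0.25), at limma adjusted p = 0.00326 (blocked fit, 0.00456).

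CFB encodes factor B, which supplies the protease of the alternative pathway convertase. Its normalized counts were 37.4 in D, 198 in J, 45.2 in L and 93.3 in W without treatment, and 41.7, 28.9, 27.6 and 18.02 with TGF-β2. The groups overlapped, because the untreated 37.4 of horse D lay below its treated 41.7, from 43 and 35 reads before scaling. The log2 change was 0.15 in D and -2.73 in J. The log2 fold change of -1.40 (SE 0.53) had limma adjusted p = 0.0954 (blocked fit, 0.0985), and was not called. DESeq2 on the recovered reads called CFB lower without and with a term for the horse (adjusted p = 0.0176 and 0.0374), as did limma on libraries scaled to the same total (adjusted p = 0.0461), a scaling under which the median gene moved by -0.30. edgeR did not call it in either form (adjusted p = 0.0654 and 0.111).

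CD55 encodes decay-accelerating factor, a surface protein that dissociates the convertases. It had 136 normalized counts in D, 417 in J, 271 in L and 32.5 in W without treatment, and 242, 239.8, 300.0 and 197 after it. The untreated libraries were spread 12.9-fold and the treated ones 1.52-fold, around means of 214 ± 167 and 245 ± 42.3 (SD, n = 4). CD55 was 6.07-fold higher after treatment in W and lower in J. Its log2 fold change, 0.69 (SE 0.69), had limma adjusted p = 0.522 (blocked fit, 0.370), and no alternative called it.

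The horses differed in their untreated levels. Horses J and W held the highest levels of 5 of the 7 genes, C1R, C1S, SERPING1, CFB and CFI, and these were the genes with a spread of 2.93-fold to 5.47-fold between horses. The share of all genes tested with this pair on top was not computed, so the count is a description. C7 varied only 1.41-fold. CD55 was highest in J and lowest in W. IRF1, a transcription factor of the interferon response, had the same pair on top, with 13523 normalized counts in J and 1965 in W against 418 in D and 462 in L. After treatment IRF1 lay between 349 and 797. Limma did not call it (adjusted p = 0.268, blocked fit 0.196), whereas DESeq2 called it lower without the horse but not with it, and IRF1 was not lower in horse D. The part of IRF1 in the complement values was not tested. With horse J left out, 5 of the 7 genes were called lower, as with all horses.

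**Figure D4:**
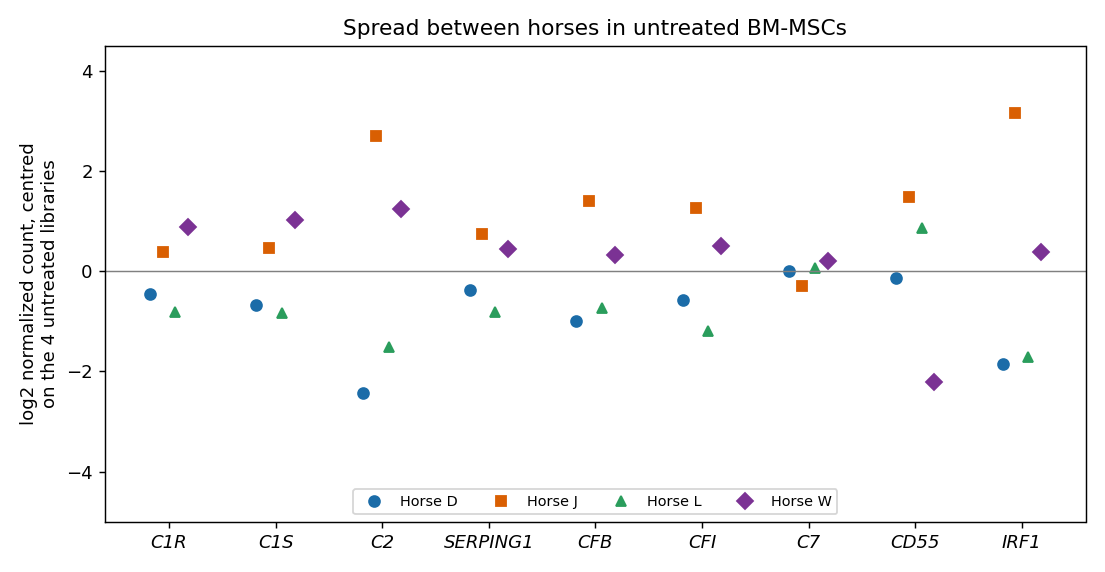
Log2 normalized count in the 4 untreated libraries, centred on their mean for each gene, for the 7 complement genes, C2 and IRF1. Horses J (squares) and W (diamonds) lie above D and L for C1R, C1S, C2, SERPING1, CFB, CFI and IRF1, but not for C7 and CD55.

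The other genes of the cascade were taken from a list of 59 symbols, which includes those above. Of these, 25 were matched and 24 passed the filter on low counts. CFD and PTX3, described below, passed it only through the group where their level was higher, and both enter the counts that follow. Limma called 14 of the 24 lower and 1 higher, where 5.87% and 5.59% of all genes were. With the block it called 15 lower and 2 higher, where 7.31% and 6.83% of all genes were. Leaving the 7 genes out, 9 of 17 were called lower and 1 higher, with a median log2 fold change of -1.48. All 4 treated libraries lay below all untreated ones for 13 of the 24, and for 13.9% of all genes.

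**Figure D5:**
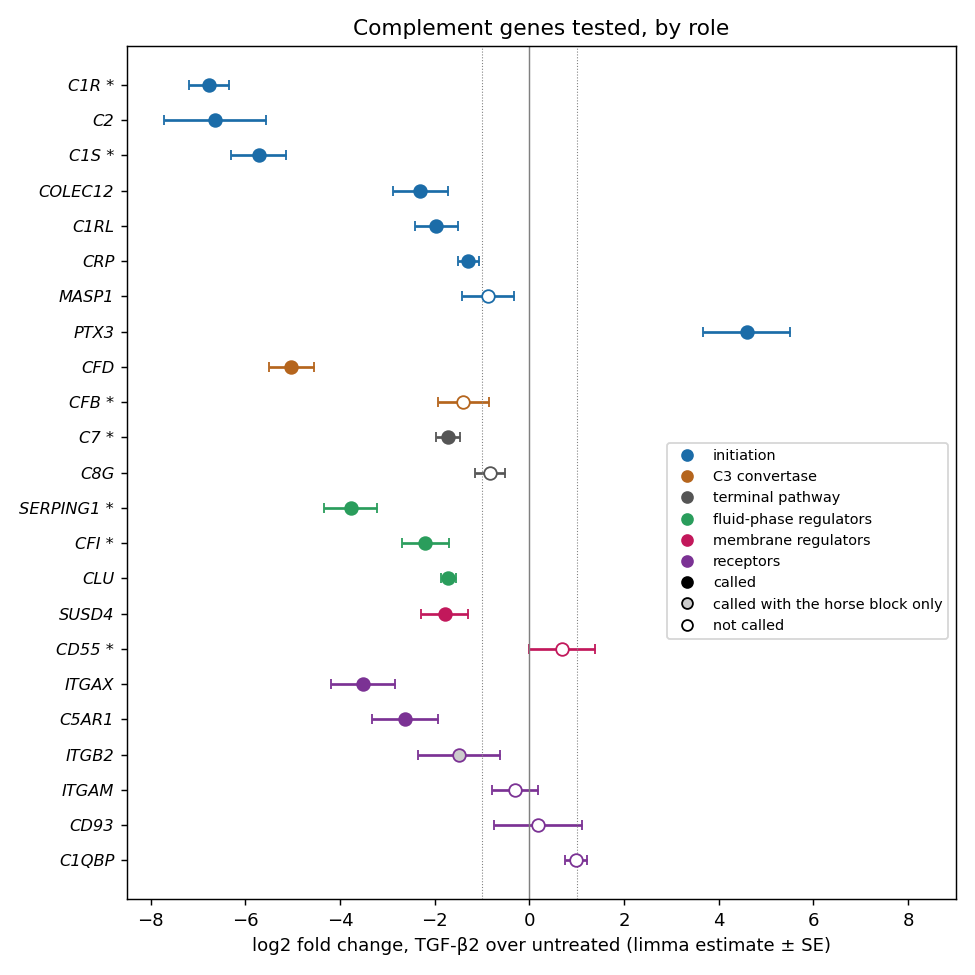
Limma log2 fold change and standard error of 23 of the 24 complement genes tested, coloured by role, with an asterisk at the 7 genes described first. Filled points were called, grey points were called with the horse block but not without it, and open points were not called. PTX3 is the only point called higher without the block, and 14 points were called lower.

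Among the initiation genes, which include C1R and C1S, 6 of 8 tested were called lower, against 5.87% of all genes. C2, the serine protease that C1s cleaves to build the classical convertase, had 116 normalized counts in D, 4035 in J, 219.6 in L and 1465 in W. In the treated libraries only 3 to 11 reads of C2 were counted, or 3.21 to 13.2 normalized counts. C2 followed the proteases, with no overlap, a log2 fold change of -6.64 (SE 1.07) and limma adjusted p = 0.00474 (blocked fit, 0.00615). C1RL, a C1r-like protease, fell by 1.96 on the log2 scale (limma adjusted p = 0.0175), but was not called with horse W left out, nor, with the block, with D or W left out. CRP, the short pentraxin C-reactive protein, fell from 104 ± 15.1 to 41.9 ± 7.36 normalized counts (SD, n = 4), at limma adjusted p = 0.00585, and was not called without W in the unblocked fit, at 0.0502. COLEC12, a scavenger receptor of the collectin family, fell by 2.30 (limma adjusted p = 0.0241), although its groups overlapped and it was lost when D, L or W was left out, and with the block when D or W was. MASP1, a lectin pathway protease, was not called, with a log2 fold change of -0.87. PTX3, a long pentraxin that binds C1q, went the other way. It had 1.74 normalized counts in D, 4.71 in J, 0 in L and 1.01 in W without treatment, and 45.3, 11.8, 64.4 and 275 in the same order after it. The adjusted p of PTX3 from limma was 0.0107, or 0.0217 with the block, and in either fit it was no longer called when D, L or W was left out. PTX3 passed the filter on low counts only through the treated libraries, where it was higher, so its call is a description.

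CFD encodes factor D, the protease that activates factor B. It had 47.9 normalized counts in D, 33.0 in J, 20.7 in L and 68.0 in W without treatment. The treated libraries held 1 read in W and 0 in D, J and L, where a count of 0 allows up to 3.57, 3.21 and 3.45 normalized counts. CFD was called lower, at limma adjusted p = 7.47e-04 (blocked fit, 0.00135). It passed the filter on low counts only through the untreated libraries, where it was higher, so this call is a description.

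Of the other regulators, CLU (clusterin), which restrains pore assembly, fell from 122318 ± 20105 to 37010 ± 721 normalized counts (SD, n = 4), at limma adjusted p = 6.34e-04 (blocked fit, 0.00221). SUSD4, a membrane protein with complement control repeats, had a log2 fold change of -1.79 (limma adjusted p = 0.0346), but was not called in any of the 4 unblocked fits that left out a horse. With the block it was called without J or L and not without D or W.

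Of the 6 complement receptor genes tested, 2 were called lower, against 5.87% of all genes. C5AR1, the C5a receptor, and ITGAX, a chain of complement receptor 4, had log2 fold changes of -2.63 and -3.51, with adjusted p from limma of 0.0291 and 0.00935. Without the block C5AR1 was no longer called when D, L or W was left out, and ITGAX when D or L was. With the block only C5AR1 was lost, when D was left out. ITGB2, the shared chain of the leukocyte integrins, was called lower only with the block (limma adjusted p = 0.0347, against 0.256 without it), and no longer without D, L or W. C1QBP, which binds the globular head of C1q, had a log2 fold change of 0.99, not past the fold threshold, and limma adjusted p = 0.0178.

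C5AR1, ITGAX and ITGB2 are also leukocyte genes, and in bulk RNA fewer cells of a type and less RNA per cell cannot be told apart. PTPRC (CD45) had 1.74 normalized counts in D, 109.7 in J, 41.5 in L and 26.4 in W without treatment, and 1.19, 3.21, 23.0 and 7.21 with it. The summed level of the 5 leukocyte markers was 221 to 1032 in untreated and 374 to 853 in treated libraries. Without the block limma called 0 of the 4 tested, where 5.87% of all genes were called lower and 5.59% higher. With the block LCP1 was called lower (log2 fold change -2.40, limma adjusted p = 0.0147, lower in 4 of 4 horses), while CORO1A, which makes up much of the treated sum, was higher in 4 of 4 horses (log2 fold change 0.94). The 5 of 8 monocyte and macrophage markers that were matched summed to 494 to 2527 and 373 to 695, most of it CD68. The untreated and treated means were 1072 and 515 for CD68 and 64.8 and 15.7 for FCER1G, each lower in 4 of 4 horses. They were 54.8 and 14.8 for CSF1R, 21.1 and 4.68 for CD163 and 27.5 and 12.1 for TYROBP, each lower in 3 of 4 horses. Of the 3 monocyte and macrophage markers tested, 1 was called lower, FCER1G, against 5.87% of all genes. For the 2 of 5 endothelial markers matched the sums were 7.10 to 26.3 and 30.0 to 55.7, with KDR called higher, and for the 2 of 6 adipocyte markers 414 to 988 and 358 to 630, with ADIPOQ called higher. The part of other cell types in the complement values was not tested. In horse D the leukocyte sum was 221 before and 462 after treatment and the monocyte and macrophage sum 494 and 373. Its untreated and treated libraries held 2 and 1 reads of PTPRC, 1 and 0 of CD48, 2 and 0 of TYROBP, 9 and 0 of CD163 and 9 and 1 of CSF1R. They also held 175 and 359 reads of CORO1A, 518 and 304 of CD68, 44 and 20 of ITGAL, 32 and 8 of LCP1 and 30 and 8 of FCER1G.

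A further list held genes of signalling pathways that are known to switch complement genes on, including the feedback inhibitor SOCS3. Of these, 14 of 15 were tested. Limma called 4 lower, SOCS3 among them, and 0 higher, both without the block (5.87% and 5.59% of all genes) and with it (7.31% and 6.83%). No gene of this list had an unadjusted p from limma under 0.05 in the higher direction, where 2742 of the 14907 genes did. In the lower direction 8 of the 14 had one, where 2707 of all genes did. Neither DESeq2 nor edgeR called any higher, without the horse (6.27% and 5.21% of all genes) or with it (7.46% and 6.64%). IL6ST, the receptor chain shared by interleukin-6 type cytokines, fell from 34047 ± 3025 to 11311 ± 2633 normalized counts (SD, n = 4). OSMR, the oncostatin M receptor, and SOCS3, a feedback inhibitor and target of the same pathway, had log2 fold changes of -2.20 and -1.85. IFNGR2, a chain of the interferon-γ receptor, fell from 2619 ± 425 to 716 ± 217 normalized counts, while IFNGR1, the other chain, had a log2 fold change of -0.06. The adjusted p from limma were 9.75e-04 for IL6ST, 0.00890 for OSMR, 0.00789 for SOCS3 and 0.00160 for IFNGR2. Without the block OSMR was no longer called when W was left out, and SOCS3 when D or W was, and with the block both were called in all 4 such fits. STAT3 and CEBPB stood just under the fold threshold, at -0.90 and -0.91, and RELA and NFKB1, chains of NF-κB, at -0.05 and -0.15.

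C1S, C1R and C1RL are consecutive protein-coding genes in the RefSeq annotation of the horse assembly TB-T2T, and C2 lies next to CFB. All 7 genes described first were matched there by symbol, and only the order of genes was used, since the reads were aligned to another build. The run of lower genes ended at LPCAT3, the neighbour of C1S on the other side, whose log2 fold change was 0.17 (limma adjusted p = 0.260). C2 and CFB, although adjacent, had log2 fold changes of -6.64 and -1.40, and NELFE beyond CFB had -0.18. Both neighbours of SERPING1 were called lower, UBE2L6, an interferon-induced conjugating enzyme, at -2.58 (limma adjusted p = 0.0167) and YPEL4 at -2.47 (limma adjusted p = 0.0262). Neither neighbour of CFI was called, with values of 0.39 for GAR1 and 0.64 for PLA2G12A, and CARD6 beside C7 had -0.94. These neighbours were chosen after the values of the complement genes were seen.

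The tested gene closest to C1R over the 8 libraries was C1S, with a root mean square difference of 0.69 between their centred log2 values, followed by LRRC3 with 0.78. For C1S the closest were LRRC3 with 0.62 and C1R with 0.69. SERPING1 lay closest to PDGFRA and RSPO4, both at 0.48, and C1S was the 366th and C1R the 923rd closest of the genes tested. Taken from the other side, SERPING1 was the 38th closest gene to C1S and the 65th closest to C1R. CFI lay closest to LOC100146833 (0.15) and FLT3LG (0.25), and C7 to FAM185A (0.17) and IL6ST (0.19). These distances are a description of 8 libraries that share treatment and donor.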

How the data were processed

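Poly(A)-selected RNA of 8 libraries (4 horses, each untreated and TGF-β2-treated) was sequenced. The authors used Trimmomatic 0.36 for trimming, STAR 2.5.2b for alignment on EquCab 3.0, featureCounts (Subread 1.5.2) for counting, and deposited DESeq2-normalized counts, a signal and not whole counts. Whether counting used strand is not given in the sources used here. Every value was a whole multiple (tolerance 0.01 read) of 1 step per library for 100% of values, so reads were recovered. The table had 15267 rows, of which 1 without a gene name (0.0281% to 0.0531% of reads) was left out.

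Groups came from the treatment labels and pairs from the horse letter. The main test was limma 3.58.1 (eBayes with trend, R 4.3.3) on log2(normalized count + 1) for genes with at least 10 in at least 4 libraries, without a term for the horse, since the study's methods name none. Libraries of the same horse deviated together (r across genes 0.386 to 0.609), so the blocked fit is given where it matters. The mean of -0.159 for different horses follows largely from centring each group on its own mean, and is no separate baseline. Alternatives were the block, DESeq2 1.42.0 and edgeR 4.0.16 on recovered reads, other pseudocounts (0.5, 5), filters (none, 50), scalings (total, upper-quartile, TMM), no trend, other thresholds and each horse left out. Total scaling with the block and the gene ratios (exact tests in scipy 1.17.1) were added after the values were seen. Fits were tested on simulated data. Gene order came from the RefSeq table of TB-T2T, another horse assembly, used for names and neighbours only (13984 of 15266 symbols matched).

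The members and lists were chosen with earlier results of these data known. Named genes are all matched members, genes of the complement and inducer lists called with or without the block, CLU, C2 and CFD (further complement genes that the rule names were not analysed here), the marker genes, and the 2 nearest genes to each called member. IRF1, STAT3, CEBPB, RELA, NFKB1, IFNGR1, MASP1, C1QBP and the genomic neighbours were named after their values were seen. Some genes that enter the fits and counts are not reported here by name.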

Additional observations from a re-analysis of the deposited data

Results flagged for a closer look

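Each of 23 named complement and inducer genes was screened in both groups of 4 libraries, 46 groups in all, for a library far from the others (Dixon's ratio at the 95% level), and 5 groups held one. Chance flags about 1 group in 20 where values are normally distributed. That rate cannot be taken for groups with very few reads, as for C2 and CFD in treated libraries. SUSD4 had 3414 normalized counts in the untreated library of horse J, far above the other untreated libraries, and 179.9 in the treated library of horse D, far below the other treated ones. COLEC12 had 2815 in the untreated library of horse W, below the others. C2 had 13.2 in the treated library of horse W, above 3.21 to 4.76 in the others, and CFD had 1.20, which is 1 read, in that same library and 0 in the other treated ones. None of the 7 members was flagged.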

How the results depend on the processing

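The member counts, 5 lower and 0 higher, stayed within 1.5 times under every alternative run: 4 to 5 were called lower with a horse left out, with or without the replicate block, and 6 with both forms of DESeq2 and with total scaling, where CFB was added. No named gene changed direction. Of the wider list, 1 was called higher, but 0 with a filter at 50 or an adjusted p under 0.01, 2 with the block in limma, DESeq2, edgeR or under total scaling, 2 with DESeq2 without the block or no fold threshold, 0 to 2 with a horse left out, and 1 to 3 with a horse left out and the block. Its 14 lower calls became 9 at an adjusted p under 0.01, 8 to 13 with a horse left out (9 without D and 8 without W), and 9 to 16 with the block and a horse left out, against 15 with 4 horses. The 4 inducer calls became 8 under total scaling, 9 with the block added and 7 with DESeq2 without the block. Among the complement and inducer genes named, the replicate block in limma changed the call of ITGB2 alone. In DESeq2 the term for the horse also changed the call of IRF1, and in edgeR that of COLEC12. Fits without a horse have 3 libraries a group, and apart from that the causes were not tested. Depth limits C2, CFD and PTX3, with 0 to 11 reads in the libraries of their lower group, and CFB, with 15 to 35 in treated libraries.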
